A study of Homo sapiens with 27 samples.

Results

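The 9 genes described here encode cytosolic and mitochondrial heat shock proteins and were chosen by symbol: *HSPA1A*, *HSPA1B*, *HSPA8*, *HSPH1*, *DNAJB1*, *BAG3*, *HSP90AA1*, *HSPD1* and *HSPE1*. All 9 were found once among the 61533 genes of the RNA-seq count table. The cells were 92.1, an established uveal melanoma line that carries an activating mutation in *GNAQ*, the gene of a G protein alpha subunit. They were grown with the focal adhesion kinase (FAK) inhibitor VS-4718 at 100 nM (FAKi) or with its solvent DMSO, and the medium with the agent was replaced every 72 h. The 27 libraries formed 9 groups of 3, namely DMSO at days 0, 3, 7, 14 and 21 and FAKi at days 3, 7, 14 and 21. Day 0 had no FAKi group, and every library came from this 1 line, which has no unmutated counterpart in the series. By the study's methods the 3 replicates of a group were biological replicates, from repeats of the whole experiment. The labels do not say whether a replicate number marks the same repeat in every group.

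Heat shock proteins are chaperones, which bind unfolded proteins and help them to fold or to be degraded. In the cytosol the HSP70 chaperones work in a cycle with J-domain cochaperones, which deliver clients and start ATP hydrolysis, and with HSP110 and BAG proteins, which exchange the nucleotide, and they pass some clients to HSP90. In mitochondria the HSP60 chaperonin encloses clients under a lid made of HSP10. Under stress, heat shock factor 1 (HSF1) binds repeats of the 3-base unit GAA, in alternating orientation, in the promoters of many of these genes, and HSP90 clients include FAK and other kinases.

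To show which members carry these repeats, the promoter stretches that hold them are given first (RefSeq, GRCh38.p14, in windows of 300 bases around each annotated start, read 5′ to 3′ on the gene's strand, with the matching units in capitals). *HSPA8* held 2 matches to the 3-unit form, at chr11:123062342-123062378 and chr11:123062167-123062203 (minus strand). *HSPD1* held 2 overlapping matches at chr2:197500056-197500090 (minus strand). *HSP90AA1* held 1 at chr14:102087093-102087144 (minus strand), followed by a shorter match, at its second annotated start.
HSPA8 distal: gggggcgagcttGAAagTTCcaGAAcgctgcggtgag
HSPA8 proximal: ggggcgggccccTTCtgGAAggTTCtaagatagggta
HSPD1: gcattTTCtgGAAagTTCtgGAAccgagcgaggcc
HSP90AA1: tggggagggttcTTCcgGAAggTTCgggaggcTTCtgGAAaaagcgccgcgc
The 3-unit form was searched on both strands as GAANNTTCNNGAA and TTCNNGAANNTTC, and 0.49% of 35116 RefSeq promoters held it.

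The shorter 2-unit form, GAANNTTC or TTCNNGAA, lies within the longer one and was found in 13.5% of all promoters. *HSPA1A* (chr6:31815425-31815456) and *HSPA1B* (chr6:31827621-31827652, both on the plus strand) held 1 each in nearly the same letters. The third promoter of *DNAJB1* (chr19:14517917-14517948, minus strand) held 1, which is not printed, and its second promoter (chr19:14518425-14518486, minus strand) held 2.
HSPA1A: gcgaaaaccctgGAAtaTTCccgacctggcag
HSPA1B: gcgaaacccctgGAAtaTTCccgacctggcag
DNAJB1: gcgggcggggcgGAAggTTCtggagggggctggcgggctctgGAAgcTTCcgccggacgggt
No match lay in the windows of *HSPH1*, *HSPE1* or *BAG3*, which says only that these letters were not there. *HSPE1* and *HSPD1* are divergent neighbours on chromosome 2, with 561 bases between the starts used by the count table, and the *HSPD1* stretch above lies between them, 289 bases from the start of *HSPE1*. The transcript of *HSP90AA1* used for counting starts at position 102139686 on chromosome 14 and not at the promoter printed above.

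The libraries held 12161994 to 43651551 counts, with a median of 24759579. Levels are given as CPM, counts scaled to a common library size by the trimmed mean of M-values (TMM), and levels of different genes are compared only per kilobase of exon (RPKM). Melanocyte lineage markers summed to 9436 to 14949 CPM, while leukocyte, endothelial, fibroblast and epithelial markers summed to at most 17.0 CPM in any library. The RNA of *PTK2*, which encodes FAK, averaged 115 to 160 CPM over the groups, and VS-4718 blocks the kinase without targeting its RNA. Mitochondrial genes took 22.0% to 27% of the counts in day 14 DMSO and 5.49% to 9.75% in day 21 DMSO, against 17.0% to 19.3% in day 7 DMSO. In all genes, 3 libraries lay apart from their replicates: FAKi day 7 replicate 1 was closer to FAKi day 14 replicate 1 than any other 2 libraries were to each other (0.181 root mean square log2 difference), DMSO day 3 replicate 1 lay 0.241 from DMSO day 0 replicate 3, and DMSO day 21 replicate 3 stood away from the other day 21 DMSO libraries. The column of the last of these in the count table is named with an extra digit in the day, while its title gives day 21, and whether any of the 3 libraries was exchanged or harvested at another time was not tested. The median over pairs of the same group was 0.34, so results that rest on these 3 libraries are given with and without them. They were picked after seeing the data, by distances over all genes, so leaving them out tends to sharpen differences between groups.

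*HSPA8*, the constitutive cytosolic HSP70, stood at 551 ± 110 RPKM (mean ± SD over the 27 libraries, range 417 to 786). *HSP90AA1*, the inducible cytosolic HSP90, stood at 511 ± 93.0 RPKM. The ranges of these 2 most abundant members overlapped, and since 18.5% of the exon bases counted for *HSP90AA1* lay outside its MANE transcript, the reference transcript of the annotation, their order depends on the gene model. *HSPE1*, which encodes the mitochondrial lid HSP10, came next at 186 ± 78 RPKM and had a wider range, 102 to 359. *HSPD1*, which encodes HSP60, stood at 118 ± 15.3 RPKM, and its range of 92.7 to 151 overlapped that of *HSPE1*. The order of these 2 also depends on the gene model, since 55% of the exon bases counted for *HSPD1* lay outside its MANE transcript. *HSPA1B*, the stress-inducible HSP70, at 42.2 ± 24.9 RPKM, *HSPH1*, an HSP110, at 40.8 ± 9.73 RPKM, and *DNAJB1*, an HSP40, at 34.7 ± 8.02 RPKM could not be separated by their spreads. *BAG3*, a nucleotide exchange factor of HSP70 that also takes part in selective autophagy, was lower at 15.7 ± 3.34 RPKM. Together the 9 members took 0.309% to 0.544% of each library's counts.

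*HSPA1A*, which encodes a protein nearly identical to that of *HSPA1B*, had 1 to 27 counts per library. It received 0.0971% to 0.921% of the counts given to the pair, with a median of 0.266%. Of the 75-base windows of its transcript, 73.8% also occur in *HSPA1B*, and 610 windows occur only in *HSPA1A*. Which of the 2 genes the shared reads came from could not be told from the counts, and the values of *HSPA1B* may hold reads from both.

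Other limits of single members follow from the gene models. Reads of processed pseudogenes can come from the parent gene, and rows named as pseudogenes of *HSPE1* held a median of 36.7% of the counts of the gene and its pseudogenes together, against 10.9% for *HSP90AA1*, 9.66% for *HSPD1* and 2.13% for *HSPA8*. Of the exon bases counted for *HSPD1*, 55.0% lay outside its MANE transcript, since a 9-exon model was used in place of the 12-exon one, so that its RPKM value depends on this model. An overlapping gene on the same strand covered 36.6% of the exon bases of *HSPA1B* and 33.7% of those of *HSPE1*, in the latter case the readthrough gene *HSPE1-MOB4*.

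The course over time in DMSO asked how stable the members were without inhibitor. *HSPA1B* measured 83.8, 89 and 83.3 CPM at day 0, 80.9, 69.2 and 71.4 at day 3, 47.5, 78.8 and 67.2 at day 7, 174, 192 and 168 at day 14 and 86.5, 79.5 and 70.1 at day 21. All 3 day 14 libraries thus lay above the 12 others, and the other days overlapped in part. *HSPE1* measured 83.2, 79.3 and 71.3 CPM at day 0, 62.7, 77 and 108 at day 3, 71.4, 68 and 62.4 at day 7, 203, 161 and 153 at day 14 and 168, 165 and 84.1 at day 21. It was high at day 14 in all 3 libraries and stayed high at day 21 in 2 of 3, the exception being replicate 3, which stood apart in all genes. Both genes passed both thresholds over the days (an adjusted p of at most 0.05 in edgeR's quasi-likelihood F test with Benjamini-Hochberg adjustment, and a largest log2 difference between days above 1). The largest log2 difference between any 2 days, here day 14 against day 7, was 1.47 for *HSPA1B* (adjusted p = 1.1e-05) and 1.37 for *HSPE1* (adjusted p = 3.0e-04), and 2 of 9 members compares with 32.9% of all genes tested.

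By the adjusted p alone 6 of the 9 members changed over the days in DMSO, against 49.9% of all genes, and the median largest difference was 0.70 for the members and 1.23 for all genes on the log2 scale. *HSPH1* measured 218, 194 and 185 CPM at day 0, 174, 219 and 175 at day 3, 150, 165 and 158 at day 7, 247, 286 and 297 at day 14 and 189 in each library at day 21. *HSPA8* rose in parallel, from a mean of 1093 ± 32.6 CPM at day 7 to 1612 ± 145 at day 14, and stood at 1247 ± 149 at day 21. *DNAJB1* followed another course, with means of 70.9 ± 3.27, 89.7 ± 19.5, 66 ± 4.31, 88.2 ± 2.84 and 106 ± 7.32 CPM in the order of the days, highest at day 21. *BAG3* (adjusted p = 0.234), *HSPD1* (adjusted p = 0.337) and *HSPA1A* (adjusted p = 0.373) did not pass in this edgeR test. Without the libraries that stood apart, a choice made after seeing the data, *BAG3* passed as well (largest difference 0.53, adjusted p = 0.00277), so that 7 of 9 members did, against 61.4% of all genes. The call of *HSP90AA1* over the days was lost without any 1 of 6 libraries (adjusted p 0.0547 to 0.137).

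The steps between consecutive days, taken from the same fit and added after seeing the data, differed in how many members passed. From day 0 to day 3 no member passed by adjusted p alone, with 0% of all genes, where edgeR gave 1 member and 2654 genes at an unadjusted p under 0.05 and DESeq2 called 133 genes by both thresholds. From day 3 to day 7 no member passed either, against 0.916% of genes. Without DMSO day 3 replicate 1 and day 21 replicate 3, *DNAJB1* rose by 0.45 from day 0 to day 3 (edgeR adjusted p = 0.00507, 18.3% of all genes) and fell by 0.56 from day 3 to day 7 (adjusted p = 5.6e-04, 21.7%), where *HSPE1* also fell (by 0.43, adjusted p = 0.0293). From day 7 to day 14, 5 of 9 members were higher and none lower, against 14.7% of all genes in either direction, and the median log2 difference was 0.50 over the members and 0 over all genes. Those 5 were *HSPA1B* (log2 difference 1.47 ± 0.16 SE, edgeR adjusted p = 4.4e-05), *HSPE1* (1.37 ± 0.23, adjusted p = 0.00112), *HSPH1* (0.82 ± 0.13, adjusted p = 6.4e-04), *HSPA8* (0.57 ± 0.13, adjusted p = 0.00962) and *HSP90AA1* (0.50 ± 0.15, adjusted p = 0.0277). *DNAJB1* had 0.43 ± 0.14 (adjusted p = 0.0517), *BAG3* 0.19 ± 0.14 and *HSPD1* -0.04 ± 0.15. The call of *HSP90AA1* was lost (adjusted p up to 0.107) without any 1 of the 3 day 7 libraries or without day 14 replicate 2 or 3, and that of *HSPA8* without day 7 replicate 3 (adjusted p = 0.0519). Without the libraries that stood apart 6 members rose, against 27.5% of all genes, *DNAJB1* with them (0.42, adjusted p = 0.00234).

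From day 14 to day 21 in DMSO, 4 members were lower and none higher by the adjusted p, against 49.4% of all genes, so that the members' share was close to the background. This step shares the day 14 libraries with the one before it. *HSPA1B* fell by 1.17 on the log2 scale (SE 0.16, edgeR adjusted p = 1.9e-05), back to 78.7 ± 8.22 CPM, and *HSPH1* fell by 0.54 (SE 0.13, adjusted p = 0.00209). *HSPA8* fell by 0.36 (adjusted p = 0.0341) and *BAG3* fell by 0.38 (adjusted p = 0.0343), and both of these calls were lost when single day 14 or day 21 libraries were left out (adjusted p up to 0.119 and 0.132). *HSPE1* had -0.30 ± 0.23 (adjusted p = 0.286). Without the libraries that stood apart 5 members fell in this step, *HSP90AA1* with them (-0.32, adjusted p = 0.0150), and *DNAJB1* (0.26) and *HSPD1* (0.34) rose, against 56.8% of all genes. Day 14 DMSO differed from day 7 and day 21 also in its mitochondrial share, given above, and with the mitochondrial genes left out the step from day 7 to day 14 was 1.45 for *HSPA1B* and 1.35 for *HSPE1*. Day and anything else that differed between harvests, such as passage or cell density, cannot be told apart in this design, nor can fewer cells of a kind from less RNA per cell.

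**Figure D1:**
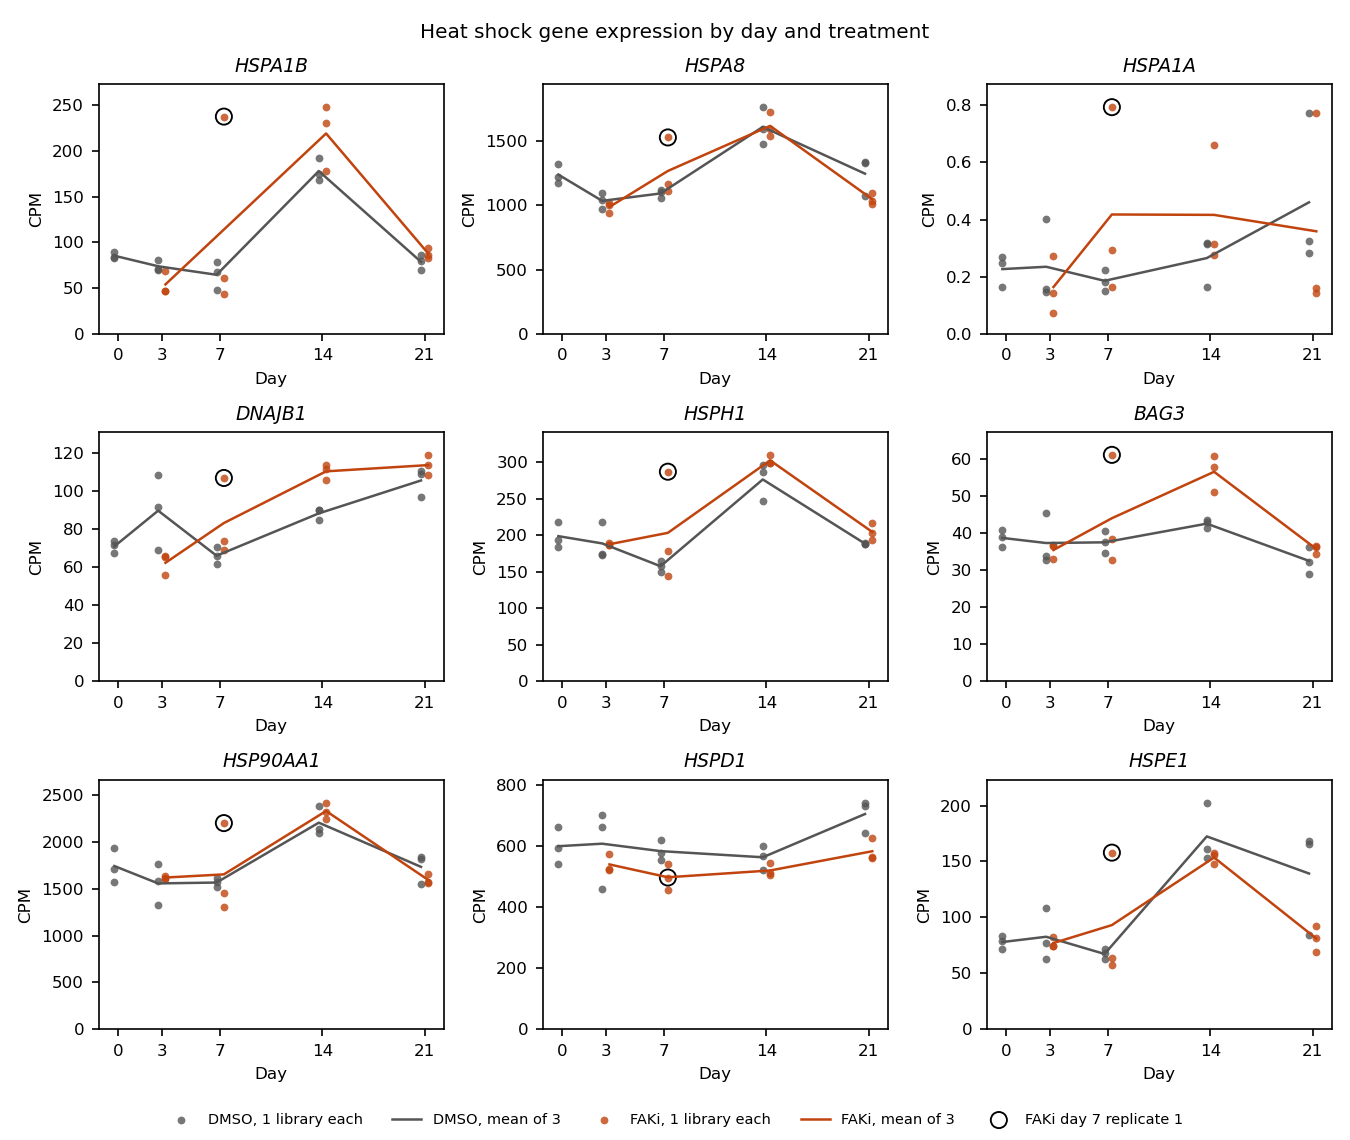
Level of each of the 9 genes in CPM (y axis, from 0, with a scale of its own in each panel) against day of culture (x axis), with 1 point per library, lines through the means of 3 libraries, DMSO in grey and FAKi in orange, and a black circle around FAKi day 7 replicate 1. *HSPA8*, *HSPE1*, *HSPH1*, *BAG3*, *HSPA1B* and *HSP90AA1* have their highest group mean at day 14 under both treatments, *DNAJB1* and *HSPD1* at day 21, and the circled library lies near the FAKi day 14 level in *HSPA1B* (237 CPM) and *HSPE1* (158 CPM).

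In FAKi, *HSPA1B* measured 68.6, 47.1 and 46.4 CPM at day 3, 237, 61.2 and 43.3 at day 7, 248, 231 and 178 at day 14 and 83.3, 93.8 and 85.9 at day 21. All day 14 libraries were high, as in DMSO, and so was day 7 replicate 1, the library that resembled day 14 in all genes. *HSPA1B* was the 1 member that passed both thresholds over days 3 to 21 (largest log2 difference 2.01, edgeR adjusted p = 0.00419), against 24.2% of all genes. By the adjusted p alone 7 of 9 did, against 45.1% of all genes, with a median largest difference of 0.70 over the members and 0.94 over all genes. Beside *HSPA1B* these were *HSPE1* (0.98), *DNAJB1* (0.89), *HSPA8* (0.70), *HSPH1* (0.68), *BAG3* (0.66) and *HSP90AA1* (0.51). The calls of *HSPE1* (adjusted p = 0.0508), *HSPH1* (up to 0.0594), *BAG3* (up to 0.0582) and *HSP90AA1* (up to 0.0768) were lost without single day 14 libraries. Without day 7 replicate 1, 7 of 9 members passed, against 58.0% of all genes.

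No member passed from day 3 to day 7 (0.849% of all genes) or from day 7 to day 14 (0.581%) in FAKi by the edgeR adjusted p. At an unadjusted p under 0.05 there were 3 and 6 members, all higher, against 11.2% and 18% of all genes, and DESeq2 called no member in either step by both thresholds. Both steps turned on day 7 replicate 1. From day 3 to day 7 *HSPA1B* had 1.07 ± 0.41 (adjusted p = 0.307) with this library and -0.07 without it, where no member passed and 6.64% of all genes did. Without it 7 of 9 members rose from day 7 to day 14, against 25.1% of all genes: *HSPA1B* by 2.08 on the log2 scale (edgeR adjusted p = 6.1e-10), *HSPE1* by 1.35 (adjusted p = 6.7e-09), *HSPH1* by 0.92, *HSP90AA1* by 0.77, *BAG3* by 0.68, *DNAJB1* by 0.64 and *HSPA8* by 0.52. The remaining 2, *HSPD1* (0.07) and *HSPA1A* (0.90, adjusted p = 0.519), did not pass. Day 7 replicate 1 was set aside after seeing the data, because it lay close to a day 14 library. Leaving it out therefore tends to widen this step, and the day 7 group then holds 2 libraries.

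From day 14 to day 21 in FAKi, 6 of 9 members fell and none rose, against 40.8% of all genes (6 and 47.8% without day 7 replicate 1), with a median log2 difference of -0.53 over the members and 0.05 over all genes. *HSPA1B* fell by 1.28 on the log2 scale (SE 0.41, edgeR adjusted p = 0.0180), *HSPE1* by 0.88 (SE 0.26, adjusted p = 0.0127), *BAG3* by 0.62 (SE 0.18, adjusted p = 0.00862), *HSPA8* by 0.59 (SE 0.13, adjusted p = 0.00137), *HSPH1* by 0.53 (SE 0.18, adjusted p = 0.0258) and *HSP90AA1* by 0.51 (SE 0.15, adjusted p = 0.0132). *BAG3* showed this in each library, with 36.5, 36.9 and 33.0 CPM at day 3, 61.1, 38.3 and 32.6 at day 7, 60.8, 57.8 and 51.0 at day 14 and 34.3, 36.5 and 36.3 at day 21. Leaving out single FAKi libraries of days 14 or 21 raised the adjusted p above 0.05 for *HSPA1B* (up to 0.0625), *HSPE1* (0.0576) and *HSPH1* (up to 0.0887). Mitochondrial genes took 20.7% to 22.1% of the counts in day 14 FAKi and 10.7% to 11.2% in day 21 FAKi, and with these genes left out the differences were -1.31 for *HSPA1B*, -0.91 for *HSPE1* and -0.65 for *BAG3*. *DNAJB1* did not fall with the others, at 106, 112 and 113 CPM at day 14 and 114, 119 and 108 at day 21 (log2 difference 0.08 ± 0.15).

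**Figure D2:**
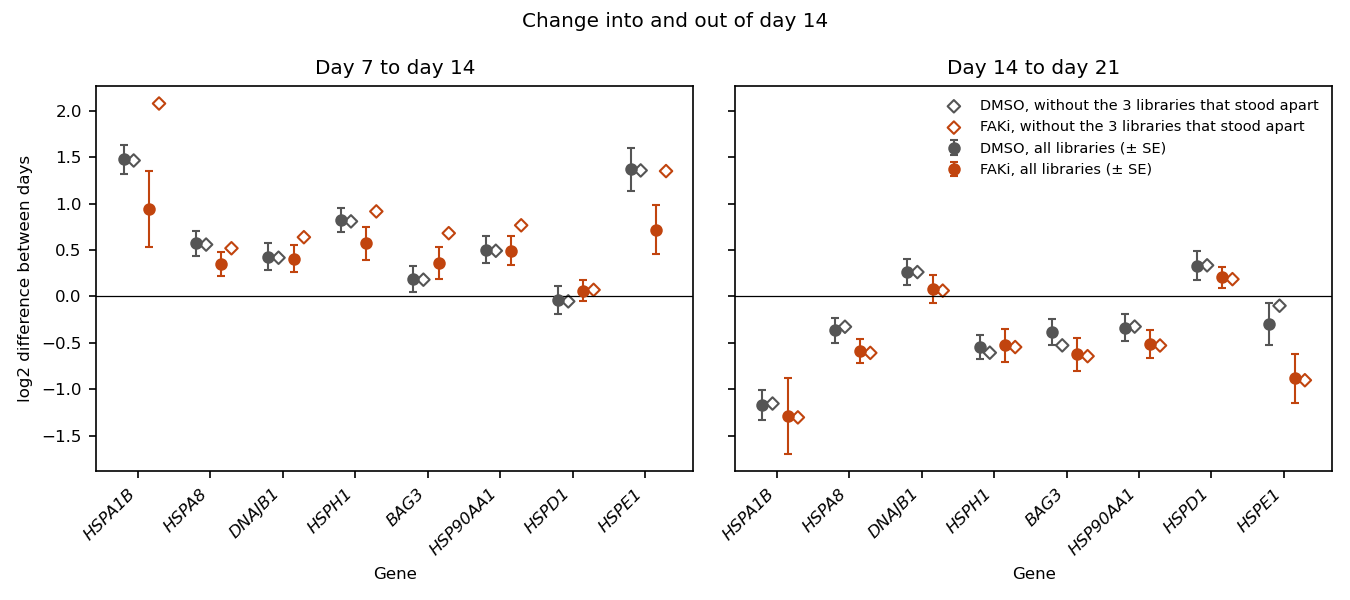
Log2 difference between days (y axis) of 8 genes (x axis, without *HSPA1A*) for day 7 to day 14 on the left and day 14 to day 21 on the right, DMSO in grey and FAKi in orange, with filled points and bars of 1 SE for all libraries and open diamonds without the 3 libraries that stood apart. *HSPA1B* and *HSPE1* stand highest in the first DMSO step (1.47 and 1.37), and the FAKi value of *HSPA1B* for that step is 0.94 with all libraries and 2.08 without the 3.

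Members moved together across libraries to different degrees. Over the 36 pairs of members and the 27 libraries, which share days and scaling, Pearson's r of log2 CPM had a median of 0.53 and was above 0 in 32 pairs. The highest was 0.916, between the cochaperone *HSPH1* and *HSP90AA1*, and the lowest -0.625, between *HSPD1* and *BAG3*. The mean of the standardised log2 CPM of the 9 members was highest in FAKi day 14 replicate 1 (1.25) and FAKi day 7 replicate 1 (1.23), 0.607 to 1.25 in the 6 day 14 libraries, and at most 0.615 in the libraries of other days apart from that day 7 library. The other 2 FAKi day 7 libraries stood at -0.719 and -1.02, so that the 3 replicates of this group covered nearly the whole range. *HSPA1A*, with 1 to 27 counts per library, had the same weight in the mean and the pairs as any other member. Its 27 counts were in DMSO day 21 replicate 1.

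**Figure D3:**
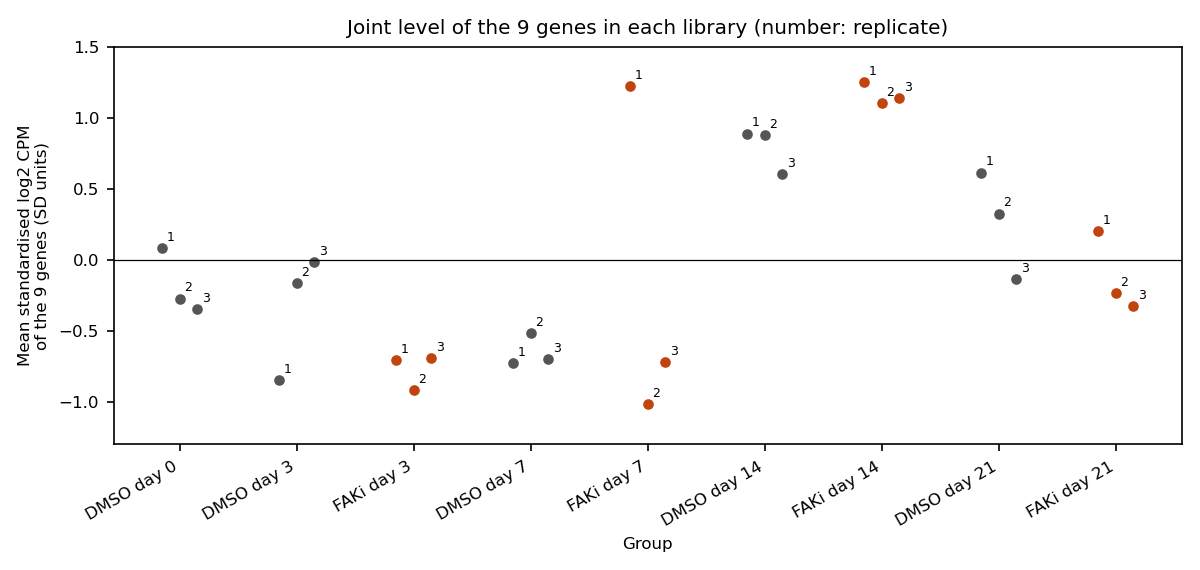
Mean standardised log2 CPM of the 9 genes (y axis, in SD units) in each of the 27 libraries by group (x axis), DMSO in grey and FAKi in orange, with the replicate number beside each point. The 6 day 14 libraries (0.607 to 1.25) and FAKi day 7 replicate 1 (1.23) lie at the top with DMSO day 21 replicate 1 (0.615), and the other 2 FAKi day 7 libraries near the bottom.

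Of the 16974 other genes with a mean of at least 1 CPM, the 10 most like this mean over the 27 libraries included 2 chaperone genes, *DNAJA1* (r = 0.915), which encodes an HSP40 of the cytosol, and *AHSA1* (r = 0.906), which encodes an activator of the HSP90 ATPase. The highest was *SRSF7* (r = 0.938), a splicing factor gene, followed by *TIMM21* (0.916), with *PLEKHA4*, *ENSG00000285772*, *HEXIM1*, *PON2*, *APOL2* and *HNRNPAB* between 0.896 and 0.914.

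The comparison of FAKi with DMSO at each day asked whether the inhibitor moved the members. By both thresholds no member was called at day 3 (0% of all genes), day 7 (0.0269%), day 14 (1.66%) or day 21 (5.28%) in edgeR, and none by DESeq2 either. By the adjusted p alone there was none at day 3 (0%), day 7 (0.0269%) or day 21 (11.6%) and 2 at day 14 (12.4%). At an unadjusted p under 0.05 edgeR gave 2, 0, 3 and 1 members at days 3, 7, 14 and 21, against 23.8%, 8.77%, 24.6% and 32.6% of genes. The median log2 difference, FAKi minus DMSO, was -0.09, 0.33, 0.13 and -0.07 over the members and between -0.02 and 0.01 over all genes. Without the libraries that stood apart the median over the members was -0.24 at day 3, -0.09 at day 7 and -0.13 at day 21, so that the sign at day 7, where still no member passed by the adjusted p (2.96% of all genes), rested on FAKi day 7 replicate 1.

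At day 3, *DNAJB1* measured 69.2, 91.6 and 108 CPM in DMSO and 65.8, 65.2 and 55.9 in FAKi. *HSPA1B* measured 80.9, 69.2 and 71.4 CPM in DMSO and 68.6, 47.1 and 46.4 in FAKi. The FAKi libraries lay below all DMSO libraries in these 2 members, while 30.9% of all genes had no overlap at this day. The log2 difference was -0.51 ± 0.18 SE for *DNAJB1* (edgeR adjusted p = 0.144) and -0.44 ± 0.18 for *HSPA1B* (adjusted p = 0.183), and neither passed. Without DMSO day 3 replicate 1, which stood apart, the value of *DNAJB1* was -0.66 with an adjusted p of 0.00406, where 32.7% of all genes passed by the adjusted p in place of 0%. Mitochondrial genes took 9.59% and 8.61% of the counts in the other 2 DMSO libraries, 18.1% in the library left out and 16.8% to 18.7% in FAKi, and the part of this in the result was not tested.

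At day 7, *HSPD1* measured 619, 575 and 555 CPM in DMSO and 497, 455 and 540 in FAKi, the 1 member without overlap, where 16.7% of all genes had none (log2 difference -0.23 ± 0.13, edgeR adjusted p = 0.658). The positive values of *HSPA1B* (0.82 ± 0.54), *HSPE1* (0.47 ± 0.34), *BAG3* (0.23 ± 0.22) and *HSP90AA1* (0.08 ± 0.20) rested on FAKi day 7 replicate 1. Without it they were -0.31, -0.16, -0.09 and -0.19.

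At day 14 *BAG3* measured 42.9, 43.5 and 41.3 CPM in DMSO and 60.8, 57.8 and 51.0 in FAKi. All FAKi values exceeded all DMSO values, and *BAG3* was 0.41 ± 0.11 higher on the log2 scale (edgeR adjusted p = 0.0153). *DNAJB1* measured 84.9, 89.9 and 89.9 CPM in DMSO and 106, 112 and 113 in FAKi, and was 0.32 ± 0.10 higher (adjusted p = 0.0331). *HSPH1* also had no overlap, with FAKi at 299 to 310 CPM and DMSO at 247 to 297, but its log2 difference of 0.13 ± 0.10 did not pass (adjusted p = 0.485), and 28.9% of all genes had no overlap at this day. *HSPA1B*, with 174, 192 and 168 CPM in DMSO and 248, 231 and 178 in FAKi, overlapped and had 0.30 ± 0.11 (adjusted p = 0.0963). The call of *BAG3* was lost (adjusted p 0.0521 to 0.11) without DMSO replicate 3 or FAKi replicate 1 or 2, and that of *DNAJB1* (adjusted p 0.0542 to 0.160) without any 1 library other than DMSO replicate 1.

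At day 21 *HSPE1* measured 168, 165 and 84.1 CPM in DMSO and 92.4, 81.4 and 69.4 in FAKi. DMSO replicate 3 lay within the FAKi range and the other 2 DMSO libraries well above it, and the log2 difference of -0.73 ± 0.25 did not pass (edgeR adjusted p = 0.0877). The mitochondrial share of the counts was split in the same way, at 5.49% in both high DMSO libraries, 9.75% in DMSO replicate 3 and 10.7% to 11.2% in FAKi, and with the mitochondrial genes left out the difference was -0.72 (adjusted p = 0.0876). With the replicate number as a block, *HSPE1* was -0.67 with an edgeR adjusted p of 0.00577. It was the 1 member that passed by adjusted p, where 29.9% of all genes did. At this day only FAKi replicate 3 correlated best with the DMSO library of its own number, so it is not shown that the numbers mark pairs. Without DMSO replicate 3, which stood apart, *HSPE1* was -0.98 (adjusted p = 7.0e-07), and *HSPA8* (-0.28), *HSPD1* (-0.27) and *BAG3* (0.29) passed as well, 4 members where 48.5% of all genes did. *HSPH1* (FAKi above) and *HSPD1* (FAKi below) had no overlap between the groups, against 35.4% of all genes, with log2 differences of 0.17 ± 0.12 and -0.22 ± 0.14.

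**Figure D4:**
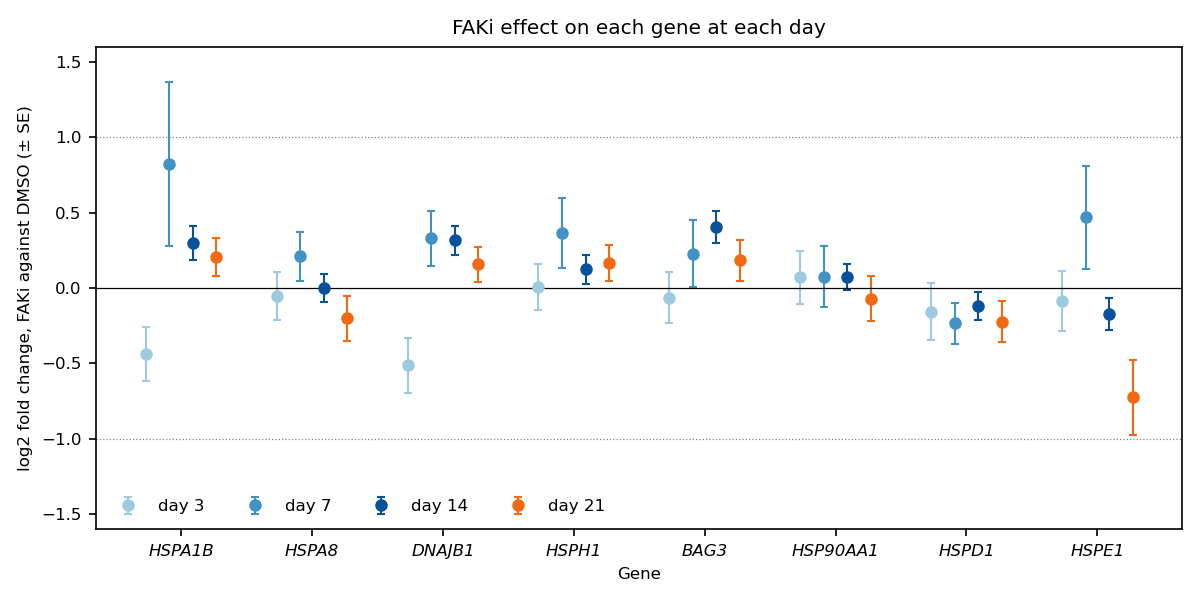
Log2 fold change, FAKi against DMSO (y axis, bars of 1 SE from the edgeR fit of each day, dotted lines at 1 and -1), of 8 genes (x axis, without *HSPA1A*) at days 3, 7, 14 and 21. No plotted point lies beyond a dotted line, the highest is *HSPA1B* at day 7 (0.82, with the longest bar, 0.54) and the lowest *HSPE1* at day 21 (-0.73). *HSPA1A*, which is not plotted and held 1 to 27 counts per library, had 1.115 ± 0.692 at day 7 (edgeR adjusted p = 0.677).

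Averaged over days 3 to 21 no member differed between FAKi and DMSO, by both thresholds (1.89% of all genes) or by the adjusted p alone (15.7%), in edgeR or by both thresholds in DESeq2. At an unadjusted p under 0.05 there were 2, *HSPD1* (-0.19 ± 0.07, adjusted p = 0.0670) and *BAG3* (0.18 ± 0.09, adjusted p = 0.157), against 30.3% of all genes. Without the 3 libraries that stood apart 3 of 9 passed by the adjusted p, against 33.0% of all genes, namely *BAG3* (0.18, adjusted p = 0.0190), *HSPD1* (-0.24, adjusted p = 4.1e-04) and *HSPE1* (-0.39, adjusted p = 2.8e-05).

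The test of a change of the FAKi effect between days gave 0 members by both thresholds (7.68% of all genes) in edgeR and in DESeq2, 2 at an unadjusted p under 0.05 (27.2%) and 1 by the adjusted p alone (10.3%). This was *DNAJB1*, whose effect moved from -0.51 at day 3 to 0.33, 0.32 and 0.16 at days 7, 14 and 21 (largest log2 difference between days 0.83, edgeR adjusted p = 0.0280). At day 3, DMSO replicates 2 and 3 measured 91.6 and 108 CPM, replicate 1 measured 69.2 and FAKi 55.9 to 65.8. Mitochondrial genes took 9.59% and 8.61% of the counts in replicates 2 and 3, against 18.1% in replicate 1, which stood apart. The part of this in the result was not tested. Without the 3 libraries that stood apart the largest difference was 0.98 (adjusted p = 2.3e-05), in a fit where 38.4% of all genes and 3 of 9 members passed by the adjusted p. The call was lost (adjusted p 0.0505 to 0.0953) without DMSO day 3 replicate 2 or 3, any 1 of the FAKi day 3 libraries or FAKi day 14 replicate 2. *HSPE1* had the second smallest p, with effects of -0.09, 0.47, -0.17 and -0.73 and a largest difference of 1.18 (adjusted p = 0.166), which was 0.81 (adjusted p = 0.00142) without the libraries that stood apart.

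*HSPE1* and *HSPD1*, which encode the lid and the ring of 1 machine and share the region between their starts, did not move in step. For every 100 counts of *HSPD1* there were 11.0 to 16.4 counts of *HSPE1* in the DMSO libraries of days 0, 3 and 7, and 28.5 to 33.7 at day 14. FAKi gave 13.0 to 15.7 at day 3, 29.0 to 30.4 at day 14 and 12.4 to 14.8 at day 21, and its day 7 libraries spanned 11.8 to 31.8. Day 21 DMSO spanned 13.1 to 22.7. *HSPD1* itself stayed between 455 and 742 CPM, its group means ranging from 497 ± 42.4 in FAKi day 7 to 705 ± 55.0 in DMSO day 21, and it passed in neither course over time (edgeR adjusted p = 0.337 in DMSO and 0.219 in FAKi). The correlation of the 2 genes over the 27 libraries was 0.206. The pseudogene rows of *HSPE1* and the gene models named above touch these ratios, and with the pseudogene counts added the step of *HSPE1* from day 7 to day 14 in DMSO was 1.21 (adjusted p = 0.00209) against 1.37 without them.

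**Figure D5:**
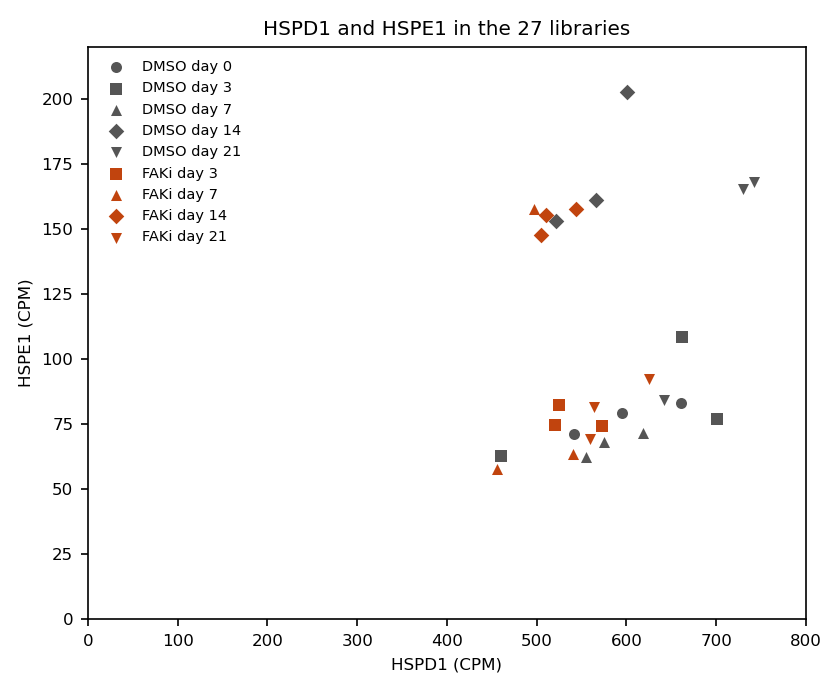
Level of *HSPE1* (y axis, CPM) against that of *HSPD1* (x axis, CPM) in each of the 27 libraries, DMSO in grey and FAKi in orange, with a symbol for each day. The 6 day 14 libraries, FAKi day 7 replicate 1 and 2 of the DMSO day 21 libraries have *HSPE1* between 148 and 203 CPM, while the *HSPD1* values of the day 14 libraries, 504 to 601 CPM, lie among those of the other days.

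*HSF1*, which encodes the main factor of the heat shock response, did not follow the members in its own RNA. In DMSO it averaged 115 ± 7.53, 143 ± 22.4, 123 ± 6.83, 78.6 ± 8.11 and 190 ± 16.6 CPM in the order of the days. It was thus lowest at day 14, where 6 of the 9 members were highest, and its log2 difference was -0.63 ± 0.14 from day 7 to day 14 (edgeR adjusted p = 0.00531) and 1.28 ± 0.14 from day 14 to day 21 (adjusted p = 2.8e-06). In FAKi it averaged 94.7 ± 12.1, 102 ± 20.8, 97.7 ± 11.2 and 159 ± 16.3 CPM at days 3, 7, 14 and 21. FAKi against DMSO did not pass at any day, with -0.58 ± 0.17 at day 3 (adjusted p = 0.107) and 0.31 ± 0.11 at day 14 (adjusted p = 0.0744). Without the libraries that stood apart *HSF1* passed at day 3 (-0.58, adjusted p = 0.0156, 32.7% of all genes) and at day 21 (-0.26, adjusted p = 0.0493, 48.5%). The change of the effect between days had an adjusted p of 0.0403, a call lost without any 1 of 16 of the 24 libraries (adjusted p 0.0531 to 0.106). RNA levels say nothing of the activity of this factor, which is set mainly on the protein.

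The wider pathway was followed in 74 further chaperone and cochaperone genes, of which 72 were tested in most comparisons. FAKi against DMSO called none of them by both edgeR thresholds at days 3, 7 and 14 and 3 at day 21, against 0%, 0.0269%, 1.66% and 5.28% of all genes. By the adjusted p alone there were none at days 3 and 7, 2 higher and 9 lower at day 14 (12.4% of all genes), and 2 higher and 11 lower at day 21 (11.6%). Of all genes, 1488 were higher and 1430 lower of 23443 at day 14, and 1224 higher and 1468 lower of 23212 at day 21. The pathway calls thus lay mostly on the lower side, and whether this differs from all genes was not tested. *HSPB7*, a small heat shock protein gene (-1.25 ± 0.15, adjusted p = 0.00472), and *GRPEL2*, whose product exchanges the nucleotide of mitochondrial HSP70 (-1.06 ± 0.13, adjusted p = 0.00572), were lower at day 21, and *HSF4*, a heat shock factor known from the lens, was higher (1.53 ± 0.16, adjusted p = 0.00412). All 3 were lost without FAKi day 21 replicate 2 (adjusted p 0.0541, 0.0581 and 0.0504). Their log2 differences were then -1.25, -1.02 and 1.465, and over all genes 52 were called in place of 1226. *GRPEL2* was also lost without FAKi day 21 replicate 3 (edgeR adjusted p = 0.0520). Averaged over days 3 to 21, *HSPB7* was the 1 gene called (-1.06 ± 0.08, adjusted p = 2.3e-09), and by the adjusted p alone 4 genes were higher and 18 lower, against 15.7% of all genes.

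By list, 5 of 12 genes of the HSP90 system were lower in this average and none higher, as were 5 of 12 mitochondrial chaperones and proteases and 3 of 8 subunits of the cytosolic chaperonin TRiC. Of all genes, 2428 of 27897 were lower by the same rule. The changes in these lists were small, with list medians of -0.12, -0.17 and -0.15 against 0.01 over all genes. With all libraries the members *HSP90AA1* (0.03 ± 0.08) and *HSPD1* (-0.19 ± 0.07) did not pass. Without the 3 libraries that stood apart *HSPD1* did (-0.24, edgeR adjusted p = 4.1e-04), where 33.0% of all genes passed. Of the other HSP70 and HSP110 genes 1 was higher and 1 lower of 8, of the other J-domain genes 2 and 2 of 11, of the other BAG genes 0 of 5, of the heat shock factors and other heat-induced genes 1 and 1 of 8, and of the small heat shock proteins 1 lower of 8. From day 7 to day 14 in DMSO, where 5 members rose, 15 of the 72 pathway genes were higher and 7 lower by the adjusted p, against 14.7% of all genes in either direction. These 7 included 4 of the 12 mitochondrial genes, none of which was higher, while the mitochondrial member *HSPE1* rose by 1.37.

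Chaperones of the endoplasmic reticulum, a compartment with its own stress response, served as a comparison with 14 genes. At day 14, 11 of the 14 were higher in FAKi by the edgeR adjusted p, against 12.4% of all genes in either direction, with a median log2 difference of 0.54 over the 14 genes and 0.13 over the 9 members, of which 2 were higher. *SDF2L1* was the 1 gene of the 14 called by both thresholds (1.24 ± 0.18, adjusted p = 7.0e-05), and *CALR*, *MANF* and *HYOU1* had 0.82, 0.63 and 0.55. At day 3 none of the 14 passed (0% of all genes), with values from -1.18 to 0.31 and a median of -0.04. At day 21 the median of the 14 was -0.39, with 1 gene lower (11.6% of all genes), and averaged over the days none of the 14 passed (15.7%). In DMSO from day 7 to day 14 the order was the other way round, with 2 of the 14 higher and 2 lower (median -0.16), against 5 of 9 members higher (median 0.50). No test of the difference between the lists was made.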

How the data were processed

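RNA was measured in 27 poly(A)-selected libraries (TruSeq Stranded mRNA) of 92.1 cells. The authors trimmed reads with Trim Galore, checked them with FastQC 0.11.8, aligned them to hg38 with STAR 2.5.3a and deposited raw gene counts over exons made with HOMER and GENCODE annotation. Strand and multimapping settings are not given in the sources used here. From these counts, genes with fewer than 20 counts in total in a comparison were dropped, and edgeR 4.0.16 (TMM, quasi-likelihood, Benjamini-Hochberg) was fitted over all genes for each day (6 libraries), for each time course, and for days 3 to 21 together. The main call needed an adjusted p of at most 0.05 and a log2 difference above 1. All genes named here follow a rule: the 9 members, *HSF1*, pathway genes called by day or on average (at most 20 per comparison), up to 4 endoplasmic reticulum chaperones, and the 10 genes most like the members. The members and lists were chosen with earlier results of these data known. Other settings tried were DESeq2 1.42.0, other scalings, count filters and depths, a replicate block and leaving out libraries. The fits were tested on simulated counts. Pairing was checked by the correlation of the deviations of same-numbered FAKi and DMSO libraries from their group means. It was 0.475, 0.170 and 0.682 at day 21, over 0.1 in every pair, and at most 0.113 at the other days. At day 21 only FAKi replicate 3 correlated best with the DMSO library of its own number, so pairing by number is not established there. Motif counts and promoter sequences come from RefSeq, and transcript overlaps from GENCODE.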

Additional observations from a re-analysis of the deposited data

Results flagged for a closer look

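In 5 of the named genes the FAKi effect differed between days by edgeR's quasi-likelihood F test of the change (Benjamini-Hochberg adjusted), which 10.3% of all genes passed. Among the members this was *DNAJB1* (adjusted p = 0.02804), lower in FAKi at day 3 by 0.51 and higher at day 14 by 0.32 on the log2 scale. In day 3 DMSO it measured 69.2, 91.6 and 108 CPM, against 55.9 to 65.8 in FAKi. The 2 higher DMSO libraries had mitochondrial shares of 9.59% and 8.61%, against 18.1% in the lowest. *HSF1* had an adjusted p of 0.0403, with effects of -0.58 at day 3 and 0.31 at day 14, and the call was lost (adjusted p 0.0531 to 0.106) without any 1 of 16 of the 24 libraries. That of *DNAJB1* was lost without any 1 of 6 (0.0505 to 0.0953). *HSF4* had an adjusted p of 0.003692 and 1.53 at day 21. *HSPB7* had an adjusted p of 0.03756, with -0.49 at day 14 and -1.25 at day 21. Its average over days 3 to 21 ranged from -1.07 to -1.05 under the other settings, so the effect was not confined to day 21. The day 21 calls of *HSF4* and *HSPB7* were lost without FAKi day 21 replicate 2 (adjusted p 0.0504 and 0.0541), where 52 of all genes were called in place of 1226. *SDF2L1*, from the endoplasmic reticulum list, had an adjusted p of 0.0008034, with 1.24 at day 14. The effects in that list of 14 genes ran from -1.18 to 0.31 at day 3 and from 0.03 to 1.24 at day 14. The largest difference between days in the list was 2.42. *HSF4*, *HSPB7* and *SDF2L1* were named for the size of their FAKi effects in these same data, so their results here are not independent of that choice.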

How the results depend on the processing

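Single genes under the alternatives were judged by the call on both thresholds. Of these results, 3064 kept the direction and the call, 39 newly passed, 12 no longer passed and 51 changed sign. All of the last were in values that had not passed. A result that had passed by the adjusted p alone and lost this is counted as kept. *DNAJB1* at day 14, for example, lost it without any 1 of 5 libraries. The totals include the setting that called by the adjusted p alone. There a gene can newly pass only because the log2 threshold is dropped, so the 39 are not all due to other processing. The count of members passing both thresholds was unchanged at 0 at days 3, 7 and 21 and on average under every alternative run, leaving out single libraries included. By the adjusted p alone it was 6 over the days in DMSO, 7 over the days in FAKi, 2 at day 14 and 1 for the change of the effect. Without day 14 it was 0 in both time courses (in DMSO *HSPE1* then had 1.00 with an adjusted p of 0.0160 and *HSPA1B* 0.41 with 0.235), without the 3 libraries that stood apart 2 over the days in FAKi, and without a count filter 2 for the change. Leaving out 1 library gave 1 to 2 over the days in FAKi (2 without day 3 replicate 2, day 7 replicate 1 or day 14 replicate 2) and 0 to 1 for the change (1 without DMSO day 21 replicate 3). The steps from day 3 to 7 and 14 to 21 in FAKi gave 0 to 1 (the latter 0 also in DESeq2), and from day 7 to 14 in FAKi 0 to 2, the 2 without day 7 replicate 1.

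The replicate block moved the genes called at day 21 from 1226 to 2076 and, at that day, changed the call of no member beside *HSPE1* by adjusted p. Same-numbered libraries correlated between -0.172 and 0.113 at the other days, so the block there shares a number only. Pairing by number is not established at day 21 either.

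Without the 3 libraries that stood apart, signs changed for *BAG3* (day 3 0.1143, day 7 -0.0865), *HSP90AA1* (day 3 -0.0232, day 7 -0.1921, average -0.07213), *HSPA1B* (day 7 -0.3085, average -0.05975), *HSPE1* (day 7 -0.1582), *HSPH1* (day 3 -0.04314), *DNAJB1* (average -0.03417) and *HSPA1A* (average -0.08891). *HSPA1A* was -0.5323 from day 7 to 14 in DMSO at 1 depth. *HSPA8* at day 14 was -0.002343 with RLE scaling, -0.01938 with upper quartiles, -0.008903 with a minimum of 10 counts per library, -0.005544 with filterByExpr and -0.002355 in DESeq2. *HSPH1* at day 3 was -0.01395 with upper quartiles, -0.02526 without a filter, -0.007997 with that minimum and -0.008379 with all 27 libraries. The cause was not tested.

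Leaving out 1 library also turned signs, with these ranges on the log2 scale. *BAG3* ran from -0.1559 to 0.1143 at day 3 and -0.0865 to 0.4085 at day 7, *HSP90AA1* from -0.0232 to 0.1601 at day 3, -0.1921 to 0.2249 at day 7 and -0.03341 to 0.06677 on average. *HSPA1A* ran from -1.582 to 0.2396 at day 21, -0.4888 to 0.8999 from day 7 to 14 and -1.424 to 0.3013 from day 14 to 21 in FAKi, and -0.07201 to 0.3882 on average. *HSPA1B* ran from -0.3085 to 1.217 at day 7 and -0.06582 to 0.3152 on average, *HSPA8* from -0.06379 to 0.07239 at day 14 and -0.05468 to 0.004826 on average, and *HSPD1* from -0.09133 to 0.01279 in DMSO and -0.007371 to 0.1248 in FAKi from day 7 to 14. *HSPE1* ran from -0.2423 to 0.1517 at day 3 and -0.1582 to 0.7244 at day 7, and *HSPH1* from -0.05276 to 0.1158 at day 3. Depth limits *HSPA1A* alone, with 1 to 27 counts per library.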
